A study of Rattus norvegicus with 6 samples.

Results

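Potassium channel subunits are the proteins that form, or attach to, the pores through which potassium leaves a cell. The genes described here are those whose symbol starts with Kcn, each taken from probe sets of a rat array that the platform annotation pairs with exactly 1 symbol. This gave 83 genes on 85 probe sets, of 14506 genes on 15310 probe sets tested in all, and a gene with more than 1 probe set is represented by the brightest. The rule reads symbols and the mean signal over all 6 samples, not differences between the groups. In a heart muscle cell the potassium currents end the action potential and hold the resting potential. Pore-forming subunits open with voltage (the Kcna to Kcnd, Kcnh and Kcnq genes), pass current inward more readily than outward (Kcnj), leak at rest (Kcnk) or open with internal calcium or sodium (Kcnma, Kcnn, Kcnt), and auxiliary subunits (Kcne, Kcnip, Kcnab, Kcnmb) set how many pores reach the membrane and how fast they gate.

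The cells were primary neonatal cardiomyocytes from the ventricles of Sprague-Dawley rats, separated from the atria. The cultures were enriched by letting fibroblasts adhere to a dish first, so that other heart cells can remain. They received hCT1, recombinant human cardiotrophin 1, at 0.5 nM for 24 h, or control serum-free medium for the same time. Each group held 3 samples with 1 array each, and the values are log2 values made by the authors with RMA. The growth entry in the sample records mentions a hypertrophic agonist for every sample, the controls among them, whereas the treatment entry and the methods give the controls medium alone, and the latter was followed here. Whether the 3 samples of a group came from separate cultures is not recorded; the spread behind each p-value may therefore be technical. Correlation between arrays over all probe sets was 0.997 to 0.998 within groups and 0.994 to 0.996 between groups. Of the cardiomyocyte markers fixed for this work, 8 of 8 were measured, and they lay at percentiles 77.4 to 99.8 of control signal. Fibroblast markers lay at percentiles 46.9 to 99.1, and smooth muscle and pericyte markers at 45.0 to 99.9. The percentiles therefore do not show how pure the cultures were.

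Potassium channel genes did not move as a block with hCT1. Tested with limma and adjusted across 15310 probe sets, 10 of the 83 genes were lower and 3 were higher at an adjusted p under 0.05, and 70 did not pass. The share called was 15.7%, near the 14.7% called among all 14506 genes. The share of lower genes was 12.0%, against 9.58% of all genes, and that of higher genes 3.61%, against 5.09%. The median log2 difference, hCT1 minus control, was 0.02 over the 83 genes and -0.0005 over all genes. After each array was centred on its own median, which moved all genes up by 0.09, 12 genes were higher and 8 lower, and over all genes 2230 were higher and 713 lower in place of 739 and 1390. The genes that fell were Kcnip2, Kcnj2, Kcna4, Kcnh2, Kcnn1, Kcnd2, Kcnj11, Kcng2, Kcnj3 and Kcne3, and those that rose were Kcnk15, Kcnj5 and Kcna3. A step of 0.5 on the log2 scale, chosen with the values known, was passed downwards by 5 of the 83 genes (6.02%) and by 1.26% of all genes (1.25% counting only those that also passed the test), and upwards by 0 of the 83 and by 1.05% of all genes.

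**Figure D1:**
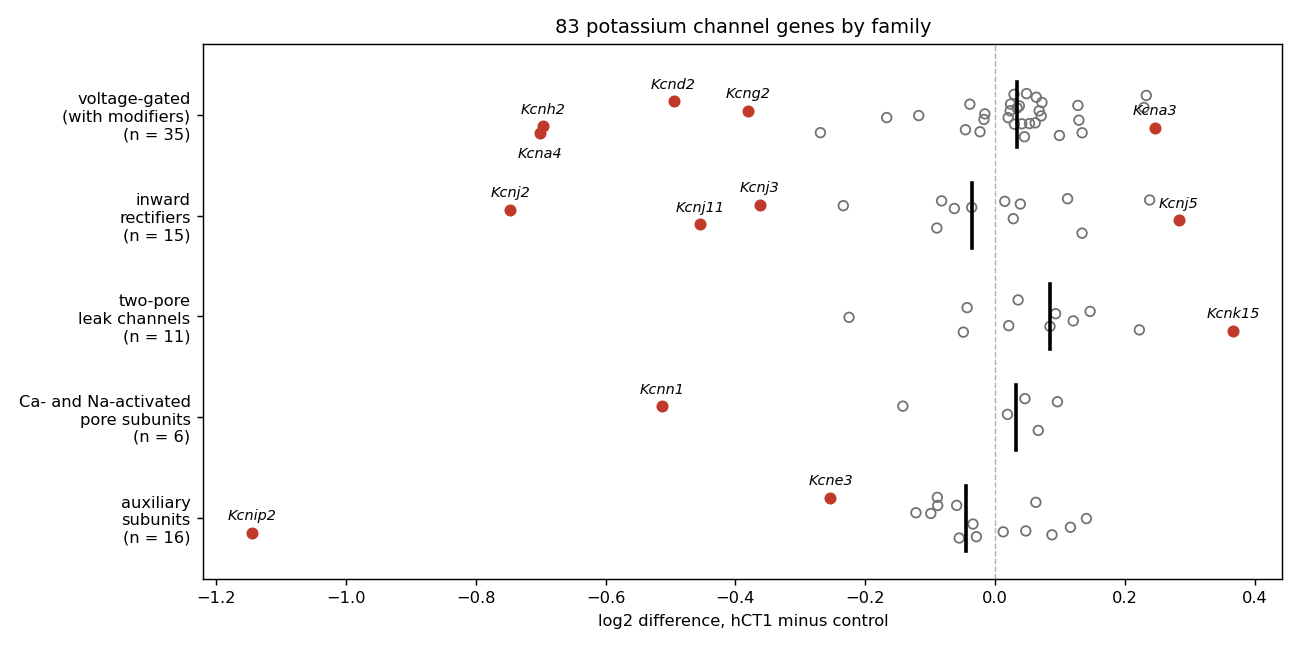
The log2 difference between hCT1-treated and control samples (3 each, horizontal axis) is plotted for each of the 83 genes by family, with points spread vertically for legibility; red points are genes called at an adjusted p under 0.05, open points all others, and black bars are family medians. The medians lie between -0.04 and 0.08 while single genes reach -1.14 on the left and 0.37 on the right.

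The bases before the transcription start are shown for the genes of the 4 largest falls that have a window in the RefSeq promoter table, and for Kcnj5, the riser among partners of one channel. The table (build GRCr8) held windows for 58 of the 83 genes, and the 250 bases before the start were read 5′ to 3′ on the strand of the gene. The windows were chr1:254613899-254614148 on the minus strand, chr10:96559975-96560224 on the plus strand, chr3:114215086-114215335 on the plus strand, chr4:50742235-50742484 on the plus strand and chr8:39011097-39011346 on the minus strand. Capitals mark matches, on either strand, to TTCNNNGAA, the dimer site of STAT factors, ACANNTGT, the site of Iroquois factors, TATAAA, the TATA box, and GGGCGG, the GC box, and no other letters were searched.
Kcnip2: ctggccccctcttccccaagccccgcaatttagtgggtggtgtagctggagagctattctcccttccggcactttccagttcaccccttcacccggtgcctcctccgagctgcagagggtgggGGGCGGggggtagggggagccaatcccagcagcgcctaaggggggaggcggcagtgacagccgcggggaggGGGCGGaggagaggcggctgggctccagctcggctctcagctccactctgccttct
Kcnj2: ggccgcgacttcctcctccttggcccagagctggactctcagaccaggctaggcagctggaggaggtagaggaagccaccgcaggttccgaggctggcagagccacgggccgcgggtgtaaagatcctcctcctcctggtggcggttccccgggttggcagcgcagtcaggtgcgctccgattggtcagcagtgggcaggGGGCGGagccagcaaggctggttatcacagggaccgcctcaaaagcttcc
Kcna4: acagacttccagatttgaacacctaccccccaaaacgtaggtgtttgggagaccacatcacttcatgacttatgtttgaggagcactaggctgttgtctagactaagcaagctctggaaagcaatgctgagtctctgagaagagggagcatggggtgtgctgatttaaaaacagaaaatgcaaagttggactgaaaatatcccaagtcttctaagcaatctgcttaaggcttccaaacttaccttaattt
Kcnd2: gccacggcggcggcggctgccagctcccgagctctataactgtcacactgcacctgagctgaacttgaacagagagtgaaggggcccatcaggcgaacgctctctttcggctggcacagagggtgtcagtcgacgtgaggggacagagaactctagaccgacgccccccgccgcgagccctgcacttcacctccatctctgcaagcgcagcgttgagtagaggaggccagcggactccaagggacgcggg
Kcnj5: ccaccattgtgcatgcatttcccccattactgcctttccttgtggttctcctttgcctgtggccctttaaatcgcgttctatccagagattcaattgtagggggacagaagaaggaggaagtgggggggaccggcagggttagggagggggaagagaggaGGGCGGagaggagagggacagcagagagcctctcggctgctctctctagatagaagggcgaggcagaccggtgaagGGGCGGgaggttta
Kcnip2 held 2 GC boxes, at 127 and 56 bases before the start, Kcnj2 held 1 at 50 bases, and Kcnj5 held 2 at 90 and 14 bases, while Kcna4 and Kcnd2 held no match to any of the 4 motifs. Over all 33469 windows of this length 30.5% held a GC box, 7.67% TTCNNNGAA, 6.71% ACANNTGT and 12.9% TATAAA. None of the 5 windows holds TTCNNNGAA, which says only that these letters are not in these 250 bases.

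Most of the probe sets were dim. In control samples 58 of the 83 genes lay under percentile 40 of signal and 25 at or above it, and 10 of the 13 called genes were among these 25. A percentile describes a probe set on the array and does not rank genes by transcript number. The table carries no detection calls, so the dim genes may lie at background. The brightest probe sets in control samples were those of Kcng2 (percentile 88.2), Kcnmb1 (85.8), Kcnq1 (79.1), Kcnj5 (75.6) and Kcnh2 (69.2).

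The largest fall was in Kcnip2, which encodes a calcium-binding auxiliary subunit of the Kcnd channels that in mouse is needed for the fast transient outward current, the early repolarizing notch of the action potential. Its log2 value was 6.10, 6.08 and 6.003 in the control samples and 5.03, 4.86 and 4.86 in the hCT1-treated samples. The lowest control sample lay 0.97 above the highest treated one. The difference was -1.14 (SE 0.07, adjusted p = 1.39e-05 from limma), a level 2.21-fold lower with hCT1 on this scale. Its mean moved from percentile 43.0 of signal in control samples to 31.8 in treated samples, where a probe set may lie at background, so the fold may be understated. A dimmer probe set of Kcnip2, annotated to 1 transcript where the brighter is annotated to 5, read 5.05, 4.86 and 4.92 in control samples and 4.79, 4.55 and 4.75 in treated ones. There the difference was -0.25 (SE 0.08) and did not pass the test (adjusted p = 0.0701 from limma). The dimmer probe set lay at percentile 32.6 of control signal, where a change may not be detectable in full. Within each sample the brighter probe set exceeded the dimmer by 1.12 ± 0.09 in control samples and by 0.22 ± 0.10 in treated samples (SD, n = 3 each). Both probe sets had groups that did not overlap, and the sizes of their differences were unequal.

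The pores that Kcnip2 attaches to come from Kcnd2 and Kcnd3. Kcnd2 was 5.55, 5.76 and 5.59 in control samples and 4.93, 5.12 and 5.36 in treated samples, a difference of -0.50 (SE 0.10, adjusted p = 0.0143 from limma). The groups were 0.19 apart, and hCT1 replicate 3 was the highest of the treated samples. Kcnd2 lay at percentile 39.3 of signal in control samples and 34.4 in treated samples, where a probe set may lie at background. Without control replicate 2 the adjusted p of Kcnd2 was 0.0524. Kcnd3 was 7.12, 7.16 and 7.09 in control samples and 6.91, 6.99 and 6.98 in treated samples. Its difference of -0.17 (SE 0.05) did not pass (adjusted p = 0.0731 from limma), although the groups did not overlap. It passed with array weights (adjusted p = 0.0374) and once dim probe sets were left out (adjusted p = 0.0308). The third Kcnd gene, Kcnd1, differed by -0.04 (SE 0.08). The log2 ratio of Kcnd2 over Kcnd3 within samples changed by -0.33 and did not overlap between the groups, with an exact 2-sided permutation p of 0.1, the smallest that 3 samples against 3 allow.

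Kcna4, the pore of the slow transient outward current, fell as well. Its log2 value was 6.55, 6.60 and 6.47 in control samples and 5.69, 5.97 and 5.86 in treated samples, a difference of -0.70 (SE 0.08, adjusted p = 0.000583 from limma). The groups lay 0.50 apart. Among 4 genes listed for the transient outward currents, 3 fell and Kcnd3 did not pass, where 9.58% of all genes were lower. These genes were listed with earlier results of these data known.

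The delayed rectifiers, which carry the later phase of repolarization, divided. Kcnh2, the pore of the rapid component, was 8.17, 8.11 and 7.94 in control samples and 7.44, 7.26 and 7.42 in treated samples. It fell 1.62-fold, by 0.70 on the log2 scale (SE 0.08, adjusted p = 0.00064 from limma), with the groups 0.49 apart. Kcnq1, the pore of the slow component, was 8.76, 8.71 and 8.71 in control samples and 8.82, 8.81 and 8.76 in treated samples. Its difference of 0.07 (SE 0.05, adjusted p = 0.398 from limma) did not pass. Within samples the log2 ratio of Kcnh2 over Kcnq1 was -0.65 ± 0.10 in control and -1.42 ± 0.11 in treated samples (SD, n = 3 each). The exact permutation p was at its floor of 0.1, which was fixed because every treated value was lower for Kcnh2 and higher for Kcnq1. The small single-span subunits Kcne1 and Kcne2, which attach to these pores, differed by -0.12 (SE 0.10) and -0.10 (SE 0.10), and neither passed. Both were dim, at percentiles 33.6 and 27.6 of control signal, so a change may not be detectable. Of 7 measured genes listed for other delayed rectifiers of the rodent heart (Kcna1, Kcna2, Kcna5, Kcna6, Kcna7 and the beta subunits Kcnab1 and Kcnab2), 0 passed in limma, 0 had an unadjusted p under 0.05 in limma or by the one-way test, and the differences ran from -0.12 to 0.10. All 7 lay under percentile 40 of control signal, so a change in them may not be detectable on these arrays. Over all genes 14.7% passed.

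**Figure D2:**
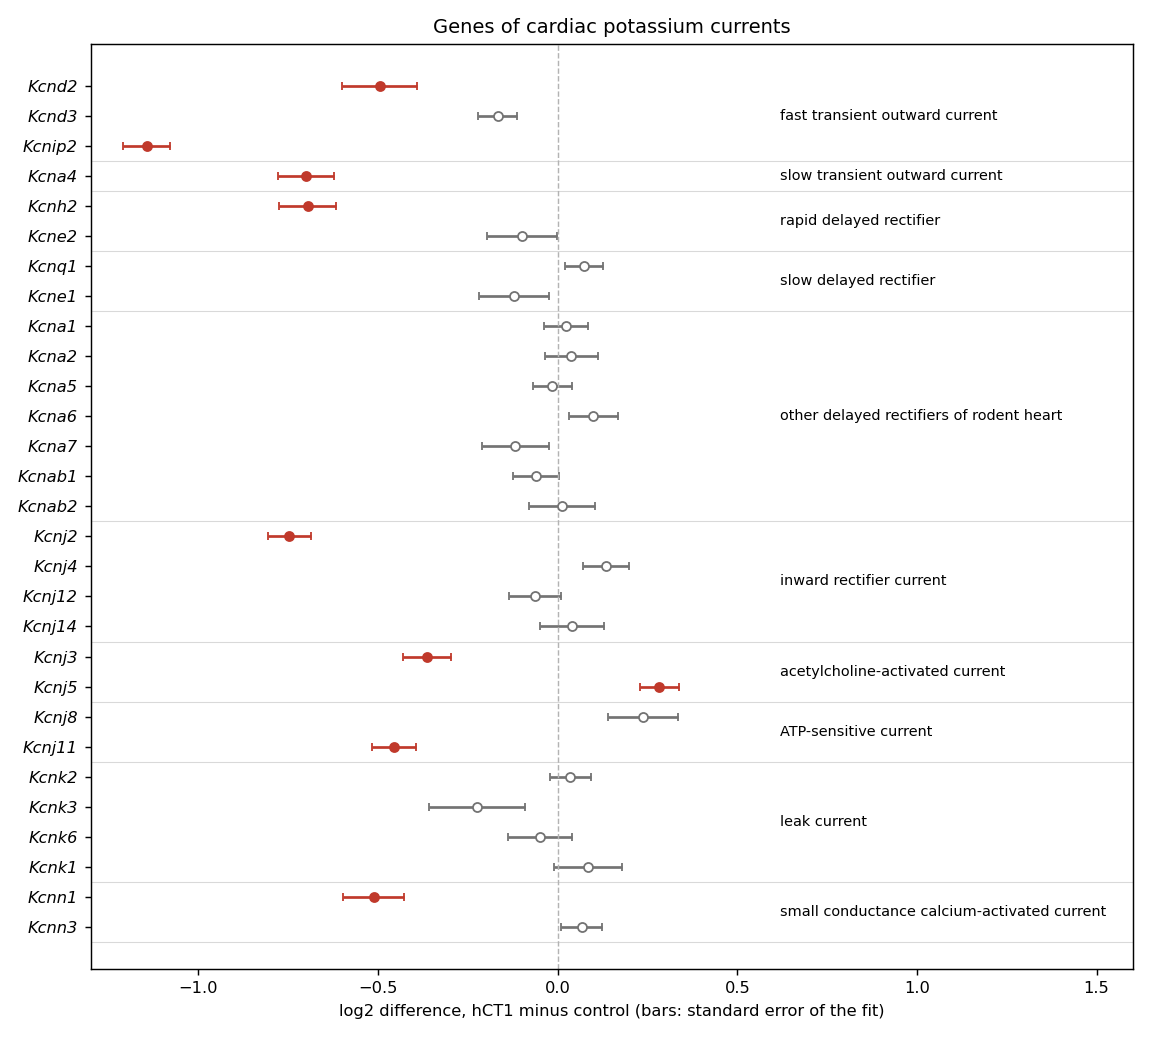
Log2 differences, hCT1 minus control (3 samples each), are plotted for the 29 measured genes of cardiac potassium currents, with bars for the standard error of the limma fit; red points are called genes (adjusted p under 0.05) and open points all others. In the transient outward, rapid delayed rectifier and inward rectifier rows, Kcnip2, Kcnj2, Kcna4 and Kcnh2 lie between -0.70 and -1.14, while Kcnq1 and the other delayed rectifiers lie within 0.12 of 0.

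Among the inward rectifiers, Kcnj2 fell furthest. It encodes the main pore of the current that holds the resting potential of ventricular cells, and it was 7.53, 7.53 and 7.65 in control samples against 6.87, 6.79 and 6.80 in treated samples. The 2 sets of values lay 0.66 apart, and the level was 1.68-fold lower with hCT1 (log2 difference -0.75, SE 0.06, adjusted p = 7.9e-05 from limma). Its close relatives did not pass. Kcnj12 was 7.15, 6.99 and 7.15 in control samples and 7.04, 6.93 and 7.13 in treated samples (difference -0.06, SE 0.07), Kcnj4 differed by 0.13 (SE 0.06) and Kcnj14 by 0.04 (SE 0.09). Kcnj4 and Kcnj14 lay at percentiles 31.2 and 37.6 of control signal, where a change may not be detectable. Within samples the log2 ratio of Kcnj2 over Kcnj12 changed by -0.68, from 0.47 ± 0.08 to -0.21 ± 0.10 (SD, n = 3 each). Its groups were apart, with an exact permutation p of 0.1. The 2 sets of Kcnj2 values lay further apart, by 0.66, than Kcnj12 ranged over the 6 samples, 6.93 to 7.15. The ratios therefore had to be apart, and this p adds no support.

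The 2 genes of the acetylcholine-activated channel, a heteromer of both products that slows the pacemaker and shortens the atrial action potential, moved in opposite directions. Kcnj3 fell, from 7.73, 7.67 and 7.58 in control samples to 7.21, 7.29 and 7.39 in treated samples (difference -0.36, SE 0.07, adjusted p = 0.00786 from limma). Kcnj5 rose, from 8.43, 8.51 and 8.50 to 8.77, 8.78 and 8.74 (difference 0.28, SE 0.05, adjusted p = 0.00927 from limma). Neither gene had overlapping groups. The log2 ratio of Kcnj5 over Kcnj3 was 0.70, 0.84 and 0.92 in control samples and 1.56, 1.49 and 1.35 in treated samples, a change of 0.65. With each gene apart in opposite directions the ratios had to be apart, so their exact permutation p of 0.1 adds no support.

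ATP-sensitive channels join a Kcnj8 or Kcnj11 pore to a sulfonylurea receptor, encoded by Abcc8 or Abcc9, and open when cellular ATP is low. In mouse atria the channel is built mainly of the Kcnj11 and Abcc8 products, in vascular muscle of those of Kcnj8 and Abcc9. The cells here came from ventricles, and which pore joins which receptor in them was not measured. Kcnj11 fell, from 6.56, 6.72 and 6.68 to 6.22, 6.16 and 6.21 (difference -0.46, SE 0.06, adjusted p = 0.00153 from limma). Abcc8 fell from 7.49, 7.48 and 7.24 to 6.93, 6.73 and 6.93 (difference -0.54, SE 0.09, adjusted p = 0.00369 from limma). Abcc9 rose, from 8.53, 8.47 and 8.34 to 8.79, 8.69 and 8.74 (difference 0.29, SE 0.07, adjusted p = 0.0190 from limma), and lost the call when control replicate 2, hCT1 replicate 1 or hCT1 replicate 3 was left out (adjusted p = 0.0527 to 0.0682). Kcnj8 was 5.32, 5.37 and 5.44 in control samples and 5.86, 5.48 and 5.498 in treated samples. Its difference of 0.24 (SE 0.10) did not pass (adjusted p = 0.137 from limma) and was 0.12 without hCT1 replicate 1, the sample at 5.86. Kcnj8 lay at percentile 37.0 of control signal, where a change may not be detectable. The log2 ratio of Kcnj11 over Kcnj8 changed by -0.69. Its groups had to be apart, since those of Kcnj11 and Kcnj8 were apart in opposite directions, so the exact permutation p of 0.1 adds no support.

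**Figure D3:**
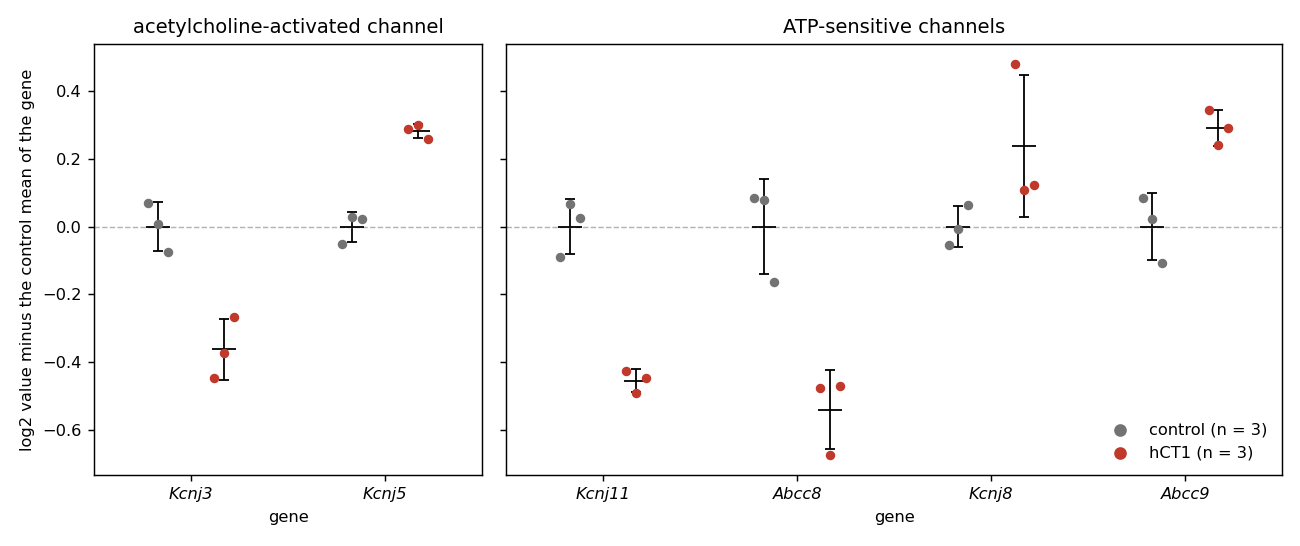
Values of 6 genes are plotted as the log2 value minus the mean of the control samples of that gene, in grey for the 3 control arrays and in red for the 3 hCT1 arrays, with a horizontal line for the mean and bars for the SD. Kcnj3, Kcnj11 and Abcc8 lie below 0 in every treated sample and Kcnj5, Kcnj8 and Abcc9 above it, the difference of Kcnj8 did not pass the test, and that of Abcc9 lost its call without any 1 of 3 samples.

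Among 6 genes of calcium- and sodium-activated pores, 1 fell and 0 rose, where 9.58% of all genes were lower and 5.09% higher. Kcnn1, a small conductance pore gated through calmodulin, was 7.62, 7.50 and 7.30 in control samples and 6.89, 6.93 and 7.05 in treated samples (difference -0.51, SE 0.09, adjusted p = 0.00498 from limma), with the groups 0.24 apart. Its relative Kcnn3 differed by 0.07 (SE 0.06). Kcnn4, the intermediate conductance channel of blood cells and fibroblasts, differed by -0.14 (SE 0.06, adjusted p = 0.149 from limma), and the sodium-activated Kcnt1 by 0.10 (SE 0.08). Kcnma1, the large conductance pore, differed by 0.02 (SE 0.08) and its smooth muscle beta subunit Kcnmb1 by -0.03 (SE 0.08). Kcnn3, Kcnn4, Kcnt1 and Kcnma1 lay at percentiles 36.3, 37.5, 27.4 and 23.8 of control signal, so changes in them may not be detectable.

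Among 11 leak channel genes, 1 rose and 0 fell, where 5.09% of all genes were higher and 9.58% lower. Kcnk15, whose product gives no current when expressed by itself, was 4.16, 4.01 and 4.25 in control samples and 4.57, 4.41 and 4.54 in treated samples (difference 0.37, SE 0.08, adjusted p = 0.0131 from limma). Its control signal, at percentile 22.3, may not exceed background. The leak channels best known from heart did not pass. Kcnk2, opened by stretch, differed by 0.04 (SE 0.06), Kcnk1 by 0.08 (SE 0.10) and Kcnk6 by -0.05 (SE 0.09). Kcnk3, closed by acid, was 7.32, 7.05 and 6.68 in control samples and 6.85, 6.71 and 6.81 in treated samples, a difference of -0.23 (SE 0.13), and the groups overlapped. Without control replicate 3 its difference was -0.39 and passed (adjusted p = 0.0235 from limma). Kcnk18 differed by 0.22 (SE 0.09, adjusted p = 0.144 from limma). Kcnk1 and Kcnk18 lay at percentiles 33.5 and 36.9 of control signal, so changes in them may not be detectable.

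The remaining called genes held less firmly. Kcng2, a modifier subunit that forms no pore of its own and assembles with pore-forming voltage-gated subunits, was 9.52, 9.67 and 9.27 in control samples and 9.15, 8.996 and 9.17 in treated samples (difference -0.38, SE 0.10, adjusted p = 0.0328 from limma). It passed without control replicate 3, and lost the call without any 1 of the other 5 samples (adjusted p = 0.062 to 0.103). Kcna3, best known from lymphocytes, was 5.86, 5.75 and 5.69 in control samples and 6.02, 5.93 and 6.09 in treated samples (difference 0.25, SE 0.07, adjusted p = 0.0386 from limma). It lost the call when control replicate 2, control replicate 3, hCT1 replicate 1 or hCT1 replicate 3 was left out (adjusted p = 0.0798 to 0.118). Kcne3, an auxiliary subunit of epithelial channels, was 4.04, 4.01 and 3.98 in control samples and 3.82, 3.68 and 3.77 in treated samples (difference -0.25, SE 0.06, adjusted p = 0.0202 from limma). It lay at percentile 20.7 of control signal and lost the call when control replicate 1, control replicate 2, hCT1 replicate 2 or hCT1 replicate 3 was left out (adjusted p = 0.054 to 0.075).

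**Figure D4:**
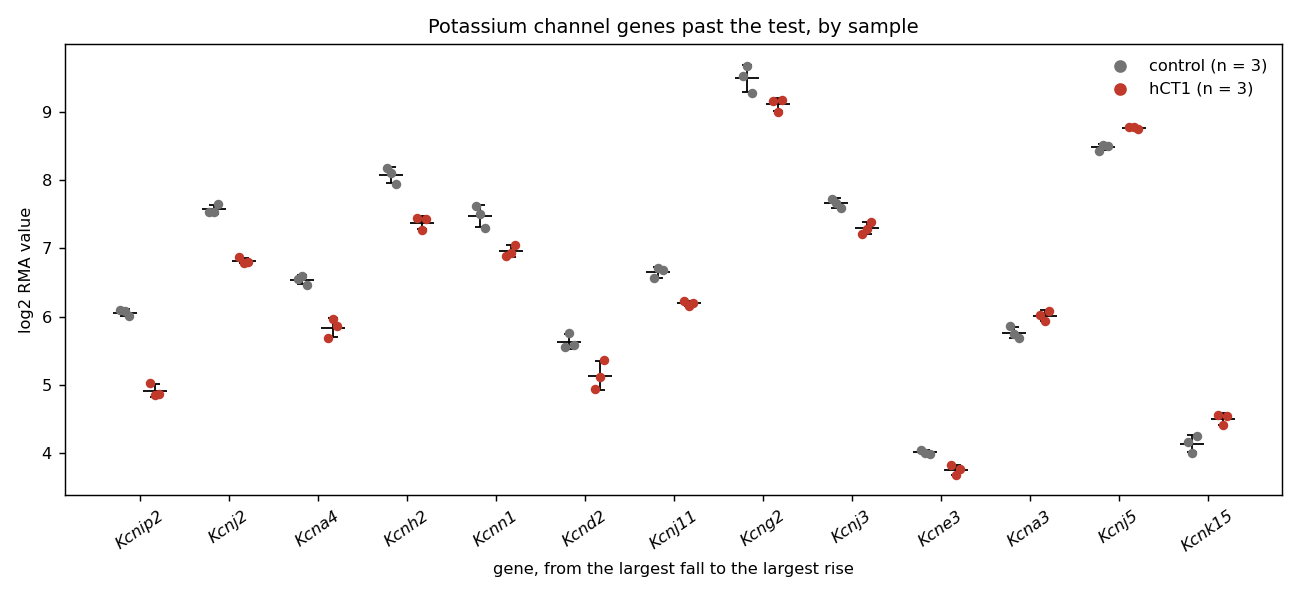
The log2 RMA value (vertical axis) of the 13 genes that passed limma at an adjusted p under 0.05 is plotted with grey points for the 3 control arrays and red points for the 3 hCT1 arrays, ordered from the largest fall to the largest rise; horizontal lines are means and bars the SD. The groups do not overlap in any of the 13, and the gap is widest for Kcnip2, at 0.97.

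Groups that did not overlap were found in 24 of the 83 genes (28.9%, against 34.2% of all genes), 12 with hCT1 above (14.5%, against 14.2%) and 12 with hCT1 below (14.5%, against 20.0%). Of these 24, 11 did not pass the test, 9 of them with hCT1 above, and 7 of the 9 lay under percentile 40 of control signal. The largest differences among the 11 were in Kcnj8, Kcng4 (0.23, SE 0.08, adjusted p = 0.0983 from limma) and Kcnf1 (0.23, SE 0.09, adjusted p = 0.138 from limma). Differences among all 70 genes that did not pass ran from -0.27 in Kcnq3 (SE 0.09, adjusted p = 0.0806 from limma) to 0.24 in Kcnj8, and 62 of the 70 lay within 0.15 of 0. An unadjusted p under 0.05 was reached by 20 of the 83 genes (24.1%) in limma, against 29.8% of all genes. Kcnq3, a neuronal pore, passed without control replicate 2 (difference -0.35, adjusted p = 0.0441 from limma). Kcnj13 differed by -0.23 (SE 0.11) and Kcnmb3 by 0.14 (SE 0.08), and neither passed. Kcnip1 had a second probe set with the opposite sign, 0.12 (SE 0.06) on the brighter and -0.05 (SE 0.08) on the dimmer, and neither passed.

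Among the 35 voltage-gated genes, 3 of 25 pore genes were lower and 1 higher (median 0.03), and of 10 genes for modifier subunits that form no pore of their own (the Kcnf, Kcng, Kcns and Kcnv genes) Kcng2 was lower and 0 were higher (median 0.04). In the other families, 3 of 15 inward rectifiers were lower and 1 higher (median -0.04), 0 of 11 leak channels were lower and 1 higher (median 0.08), 1 of 6 calcium- and sodium-activated pores was lower and 0 higher (median 0.03), and 2 of 16 auxiliary subunits were lower and 0 higher (median -0.04). Of the 29 genes measured on the list for cardiac potassium currents, 8 were lower and 1 was higher, 20 missed the threshold and the median difference was -0.06. Of the 54 genes outside that list, 2 were lower and 2 higher, with a median of 0.04. Over all genes tested, 9.58% were lower and 5.09% higher. Under percentile 40 of control signal lay 43 of these 54 genes, against 15 of the 29. A change in such dim genes may not be detectable, so the 2 sets differ in this as well. The list of current genes was drawn up with earlier results of these data known, and the difference between it and the other genes was not tested.

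Genes outside the Kcn symbols were read from 4 lists, to be set against 9.58% lower and 5.09% higher among all genes tested. Whether any list differs from all genes was not tested. Of 13 measured partner proteins of potassium channels, 2 were lower, 1 was higher and 10 missed the threshold (median 0.02). Besides Abcc8 and Abcc9 this was Fhl2, a LIM protein that binds the Kcne1 product, at 10.16, 10.13 and 10.17 in control and 9.88, 9.92 and 9.84 in treated samples (difference -0.27, SE 0.05, adjusted p = 0.0104 from limma). Among 9 genes of the sodium-potassium pump and the cation-chloride cotransporters, 2 were higher and 0 lower (median -0.01). Both encode beta subunits of the pump, which returns potassium to the cell. Atp1b3 was 8.59, 8.76 and 8.80 in control samples and 9.47, 9.42 and 9.34 in treated samples (difference 0.69, SE 0.07), and Atp1b1 rose by 0.28 (SE 0.06), with an adjusted p of 0.0515 from limma without hCT1 replicate 2. Of 12 receptor and G protein genes of the acetylcholine-activated current, Gnao1 was higher (0.39), Gnb2 (-0.24) and Rgs2 (-0.29) were lower and 9 did not pass. Gnb2 lost the call without control replicate 1, control replicate 2, hCT1 replicate 1 or hCT1 replicate 2 (adjusted p = 0.0761 to 0.0893 from limma), and Rgs2 without control replicate 2 (0.0531). Of 11 transcription regulators of cardiac channel genes, 3 were lower, 0 were higher and 8 missed the threshold (median -0.06). These were Etv1, a factor of fast conducting atrial and Purkinje muscle in mouse, which fell from 9.42, 9.35 and 9.39 to 8.76, 8.77 and 8.69 (difference -0.65, SE 0.05), Tbx5 (-0.29) and Klf15 (-0.22), which in mouse controls the daily rhythm of Kcnip2. Klf15 lay at percentile 37.2 of control signal. Both Tbx5 and Klf15 lost the call when control replicate 1, control replicate 2 or hCT1 replicate 1 was left out, as did Tbx5 without hCT1 replicate 2 and Klf15 without hCT1 replicate 3 (adjusted p = 0.0708 to 0.0878 for Tbx5 and 0.08 to 0.109 for Klf15, from limma).

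Markers of several cell types moved in part, where 9.58% of all genes were lower and 5.09% higher. Of 8 cardiomyocyte markers 3 were lower with hCT1 (Tnni3, Myh6 and Myl2) and 0 higher, and the mean log2 level of the list was 10.76 to 10.81 in control samples and 10.53 to 10.60 in treated samples. Fibroblast markers passed in 0 of 8 genes by limma, with a mean level of 8.89 to 8.93 in control and 8.85 to 8.91 in treated samples. Of 7 smooth muscle and pericyte markers 2 were lower (Myh11 and Tagln), with a mean level of 9.54 to 9.57 in control and 9.46 to 9.49 in treated samples. Emcn among 5 endothelial markers and Lyz2 among 6 leukocyte markers were lower, and 0 of 4 markers of neurons and glia passed. The part of these shifts in the values of the channel genes was not tested, and in bulk RNA fewer cells of a type and less RNA per cell cannot be told apart.

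**Figure D5:**
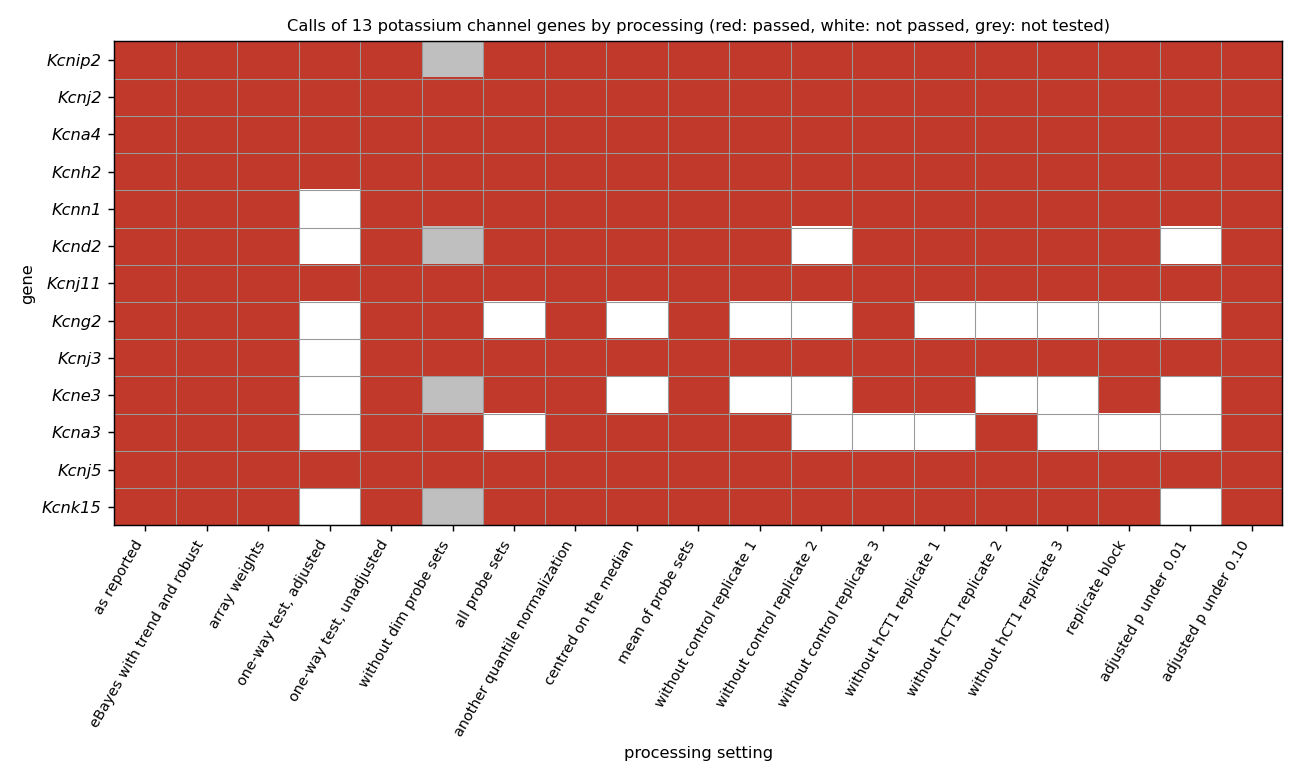
Each row is 1 of the 13 called genes and each column 1 processing setting; red cells passed that setting's threshold, white cells did not and grey cells were not tested because the dim filter left the probe set out. The rows of Kcnj2, Kcna4, Kcnh2, Kcnj11 and Kcnj5 are red throughout, Kcnip2 in every setting that tested it, and Kcng2, Kcna3 and Kcne3 have the most white cells.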

How the data were processed

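Total RNA of primary neonatal rat cardiomyocytes, 3 control and 3 hCT1-treated samples, was hybridised to Affymetrix whole-transcript arrays. The authors deposited log2 values made with RMA in Affymetrix Expression Console, a method that removes background, gives all arrays the same distribution and combines probes into 1 value; versions and the genome build are not given in the sources used here. Folds of dim probe sets are understated on this scale, and the number of arrays limits the precision.

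Of 29215 probe sets, 15310 had exactly 1 symbol and were tested, 323 had several and 13582 had none in the platform annotation. Groups were compared, 2-sided, by lmFit and eBayes of limma 3.58.1 (R 4.3.3) over the 15310 probe sets with Benjamini-Hochberg adjustment; a fold is 2 to the power of the log2 difference. The script was first tested on simulated data. All 83 member symbols matched RefSeq gene identifiers. Genes named are all called members, all current-list genes, the 2 largest differences per family that did not pass, members whose probe sets differ, and called genes of the other lists; Kcnd1, Kcnf1, Kcnma1 and Kcnmb1 were added after their values were seen. Members and lists were chosen with earlier results of these data known. Alternatives were other tests, weights, filters, normalizations, thresholds and probe set summaries, leaving out each sample, and a replicate block.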

Additional observations from a re-analysis of the deposited data

How the results depend on the processing

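Among the 13 called potassium channel genes, 198 of 230 comparisons with an alternative kept direction and call, 32 lost the call and 0 turned sign. Counts over the 83 genes, 3 higher and 10 lower, were 1 and 5 by the adjusted one-way test, 1 and 7 at an adjusted p under 0.01, 12 and 8 after centring on the median, 2 and 10 with the replicate block, and 2 to 3 and 8 to 11 without any 1 sample; over all genes the counts were 365 and 609, 288 and 517, 2230 and 713, 477 and 943, and 405 to 846 and 744 to 1696. Fitting all probe sets of the table together called 423 genes higher and 835 lower, and 2 and 9 of the 83. Of all called genes 34.7% were higher, against 75.8% after centring and 45.6% after another quantile normalization. The median of the 83 genes, 0.02, was -0.0365 once dim probe sets were left out (24 genes remained, 2 higher and 8 lower) and 0.12 after centring.

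By list, the adjusted one-way test called 0 higher and 2 lower voltage-gated, 0 higher leak, 0 lower calcium- or sodium-activated, 1 lower auxiliary and 5 lower current genes, 0 higher and 1 lower partner, 0 higher and 1 lower G protein gene and 1 lower regulator. Centring called 4 voltage-gated, 3 inward rectifier, 4 leak, 1 auxiliary, 3 current, 2 G protein and 1 regulator genes higher, and 1 auxiliary, 1 partner, 1 G protein and 1 regulator gene lower. At an adjusted p under 0.01 there were 0 higher and 2 lower voltage-gated, 0 higher leak, 1 lower auxiliary, 0 higher and 1 lower partner, 1 higher pump, 0 lower G protein and 1 lower regulator genes. Without dim probe sets, 0 leak genes were higher, 0 auxiliary lower and 2 G protein genes higher. Array weights and an adjusted p under 0.10 each gave 2 higher voltage-gated and 2 higher G protein genes, and trend with robust fitting 2 higher G protein genes. The unadjusted one-way test gave 2 higher voltage-gated, 2 lower calcium- or sodium-activated, 2 higher current and 4 lower partner genes. All probe sets, and the replicate block, each gave 0 higher voltage-gated, 1 lower G protein and 1 lower regulator gene. Without any 1 sample, counts ran from 0 to 1 higher and 3 to 4 lower voltage-gated, 0 to 1 lower leak, 1 to 2 lower auxiliary, 7 to 9 lower current, 0 to 1 higher partner, 1 to 2 higher pump, 1 to 2 higher and 0 to 3 lower G protein and 1 to 4 lower regulator genes.

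Some genes near 0 that did not pass turned sign under an alternative. Centring moves every gene by the same amount, so a turn there, the one of Kcnab1 among them, shows only that shift. Another quantile normalization gave -0.0208 for Kcna1, -0.0165 for Kcnab2, 0.0055 for Kcnj12 and 0.0031 for Kcnk6; centring gave 0.079 for Kcna5, 0.0356 for Kcnab1, 0.032 for Kcnj12 and 0.0459 for Kcnk6; array weights gave -0.0329 for Kcnab2 and -0.0329 for Kcnj14. Without any 1 sample the values ran from -0.0237 to 0.0688 for Kcna1, -0.027 to 0.0818 for Kcna2, -0.0365 to 0.0131 for Kcna5, -0.0722 to 0.0636 for Kcnab2, -0.0256 to 0.1402 for Kcnj14, -0.1408 to 0.0233 for Kcnk6 and -0.0286 to 0.156 for Kcnk1.

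The sample titles give a replicate number, and whether same-numbered samples shared a culture or batch is not recorded. The correlation of deviations from the group means between same-numbered samples was -0.03, 0.05 and -0.28, and none correlated best with its own number. With 3 samples per group these values cannot settle whether samples were paired. With the replicate block, Kcna3 (adjusted p = 0.073) and Kcng2 (0.0593) lost the call and Kcnq3 passed (0.0413); Gnb2 (0.0679), Tbx5 (0.058) and Klf15 (0.0777), genes of the other lists, lost it too. Klf15 also lost the call with trend and robust fitting (0.0591).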
